A study of Mus musculus with 36 samples.

Results

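The mitochondrial genome (mtDNA) is copied, transcribed and read out by proteins that are encoded in the nucleus. The transcripts of 10 of them, chosen by name, were followed here through all 36 mouse libraries: Tfam, Tfb2m, Polrmt and Tefm (transcription), Twnk and Polg (replication), and Lrpprc, Slirp, Tfb1m and Mterf4 (handling of mitochondrial RNA and of the mitochondrial ribosome). All 10 were found by symbol in each of the 6 count tables, among 51912 to 55487 genes per table.

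In mitochondria, Tfam bends and packages mtDNA and, with Tfb2m, places the RNA polymerase Polrmt on the promoters, after which Tefm keeps the polymerase moving. Polrmt also makes the primers for replication, which is carried out by the helicase Twinkle (gene Twnk) and the polymerase whose catalytic subunit is Polg. Lrpprc and its partner Slirp hold the mature mRNAs in a stable pool, Tfb1m methylates the small ribosomal RNA, and Mterf4 acts with Nsun4 in assembling the ribosome. The nucleus of mature sperm transcribes little, and sperm carry few copies of mtDNA. The preimplantation embryo is known to transcribe its mtDNA while replicating it little, and skeletal muscle and liver are rich in mitochondria.

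The study asked what a short paternal high-fat diet leaves in sperm and how it reaches the offspring. Wild-type C57BL/6 males (C57BL/6N in the methods) ate a high-fat (HFD) or low-fat (LFD) diet for 2 weeks. RNA was sequenced from their cauda epididymal spermatozoa (3 HFD and 3 LFD), from round spermatids (6), and from morulae (3 and 3) obtained by in vitro fertilisation with such sperm. Liver, gastrocnemius muscle and epididymal white fat (eWAT) came from 6 male offspring libraries each, labelled with the paternal high-fat diet and sorted by the study into glucose-tolerant and intolerant animals that had not eaten it themselves. Column names give the diet in sperm and morula only, so each of the other 4 tables was taken as 1 group of 6. Sperm was collected by swim-up and treated with a detergent buffer, and samples with somatic cells visible under the microscope were not used by the study. Round spermatids were collected by a density gradient with purity checked under the microscope. Sperm libraries were read from 1 end, and round spermatid and morula libraries from both ends.

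Libraries held 2560219 to 4062321 counts in sperm, 20138842 to 31056066 in round spermatids, 11471251 to 12153141 in morula, 2036237 to 2552454 in liver, 1338149 to 4055537 in eWAT and 369772 to 2749920 in gastrocnemius. The gastrocnemius library of lowest total stood apart by depth. The mtDNA-encoded genes took 1.96% to 2.38% of counts in round spermatids, 15.1% to 18.2% in eWAT, 21.7% to 27% in liver, 22.8% to 26.9% in morula, 29.8% to 45.5% in gastrocnemius, 78.1% to 84.3% in HFD sperm and 43.5% to 64.7% in LFD sperm. Levels are therefore given as counts-per-million (CPM) of the nuclear counts (nuclear CPM), with the mtDNA-encoded genes left out of the total. Marker genes matched the labels of the offspring tissues and morula. The liver list held 61810 to 87270 nuclear CPM in liver, the muscle list 76880 to 117600 in gastrocnemius and the adipocyte list 19830 to 37080 in eWAT. All 7 morula markers were detected in morula. In the round spermatid table all 6 round spermatid markers were detected (1048 to 1176 nuclear CPM), beside all 4 spermatocyte markers (620.9 to 725.5). The late spermatid and sperm list stood at 10160 to 13230 there. In sperm, all 8 late spermatid and sperm markers were detected, beside epididymal epithelium markers (6762 to 41600 nuclear CPM, 6 of 7 detected) and leukocyte markers (1345 to 7031, all 6 detected). In some LFD sperm libraries the epididymal list stood above the late spermatid and sperm list (22110 against 19460 and 41600 against 7855). It stood below it in the other LFD library (6762 against 28310) and in HFD sperm (7571 to 12220 against 26400 to 53480). In bulk RNA, fewer cells of a type and less RNA per cell cannot be told apart.

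The 10 genes lie on 7 chromosomes of the GRCm38 build. Tfam (ENSMUSG00000003923) spans positions 71225464 to 71238280 and Polrmt (ENSMUSG00000020329) 79736123 to 79746581 of chromosome 10, Tfb2m 179528055 to 179546267 and Mterf4 93299211 to 93305915 of chromosome 1, and Lrpprc 84705247 to 84790789 and Tfb1m 3519256 to 3557781 of chromosome 17. Tefm lies at 80136678 to 80142175 of chromosome 11, Twnk at 45006558 to 45012762 of chromosome 19, Polg at 79446231 to 79466362 of chromosome 7 and Slirp at 87443896 to 87452206 of chromosome 12. Not all of these counts are equally clean. Of the exonic bases of Slirp, 97.8% lie within exons of genes on the other strand, nearly all of them in Snw1, and 35.2% of those of Mterf4 lie within exons of Sned1, so the counts of both depend on how reads in shared exons were assigned. The gene model of Tfb1m was 1327 bases long in the round spermatid table and 3609 in the others, and that of Twnk was 4013 bases in the morula table and 3488 in the others. Of the longer Twnk model, 12.6% lies within exons of Mrpl43 on the other strand, while the shorter model has no such overlap. A separate gene, Gm1818, shares 1187 bases at 99.3% identity with Tfb2m and held 57 counts over the 6 morula libraries and 2 to 6 in each other tissue.

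Nuclear respiratory factor 1 and the ETS-family factor GABP are textbook regulators of genes of this kind, so their core motifs were searched in the 250 bases before each RefSeq start (GRCm38.p6, 11 promoters for the 10 genes, both strands). The ETS core CCGGAAGT was present before 4 genes and in 2.88% of all 32851 promoters of that length. The core GCGCANGCG of nuclear respiratory factor 1 was in none of the 11, against 5.16% of all promoters, which says only that these exact letters are not in the window. The matches are shown because 4 members of different function share them. In them capitals mark the motif, and lines run 5′ to 3′ along the strand of the gene. They lie at chr10:71238073-71238102 (Tfam, minus strand), chr7:79466293-79466322 (Polg, minus strand), chr11:80142154-80142173 (Tefm, minus strand) and chr19:45006436-45006465 (Twnk, plus strand, with the motif on the opposite strand). The motifs lie 47 (Tfam), 38 (Polg), 9 (Tefm) and 111 (Twnk) bases before the RefSeq starts. The first 3 fall within annotated exons of the gene models in the count tables, and the Twnk match does not.
Tfam: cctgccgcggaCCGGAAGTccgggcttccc
Polg: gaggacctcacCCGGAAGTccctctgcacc
Tefm: agcacacgaaaCCGGAAGTt
Twnk: actaaccggtgACTTCCGGttccggggttg

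The order of the members differed between the Nextera cell types. Per base of transcript, a scale on which genes can be compared within the Nextera libraries (TPM over the nuclear genes), the order in round spermatids was led by Tfb1m (101 ± 11.6 TPM, SD, n = 6), Tfam (35.2 ± 5.76) and Polg (30.5 ± 2.95). In morula it was led by Lrpprc (98.9 ± 10.5 TPM), Tfb2m (65.2 ± 7.16) and Tefm (47.5 ± 12.5), with Polg the lowest at 3.08 ± 0.789. In sperm, Tfam (15.2 ± 7.81 TPM) and Lrpprc (11.3 ± 7.94) came first, with spreads that overlap each other and those of most other members. The lead of Tfb1m in round spermatids rests in part on the shorter gene model there; on the nuclear CPM scale it stood at 56.0 ± 3.15, below Tfam (64.95 ± 7.95) and Polg (136 ± 6.38).

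**Figure D1:**
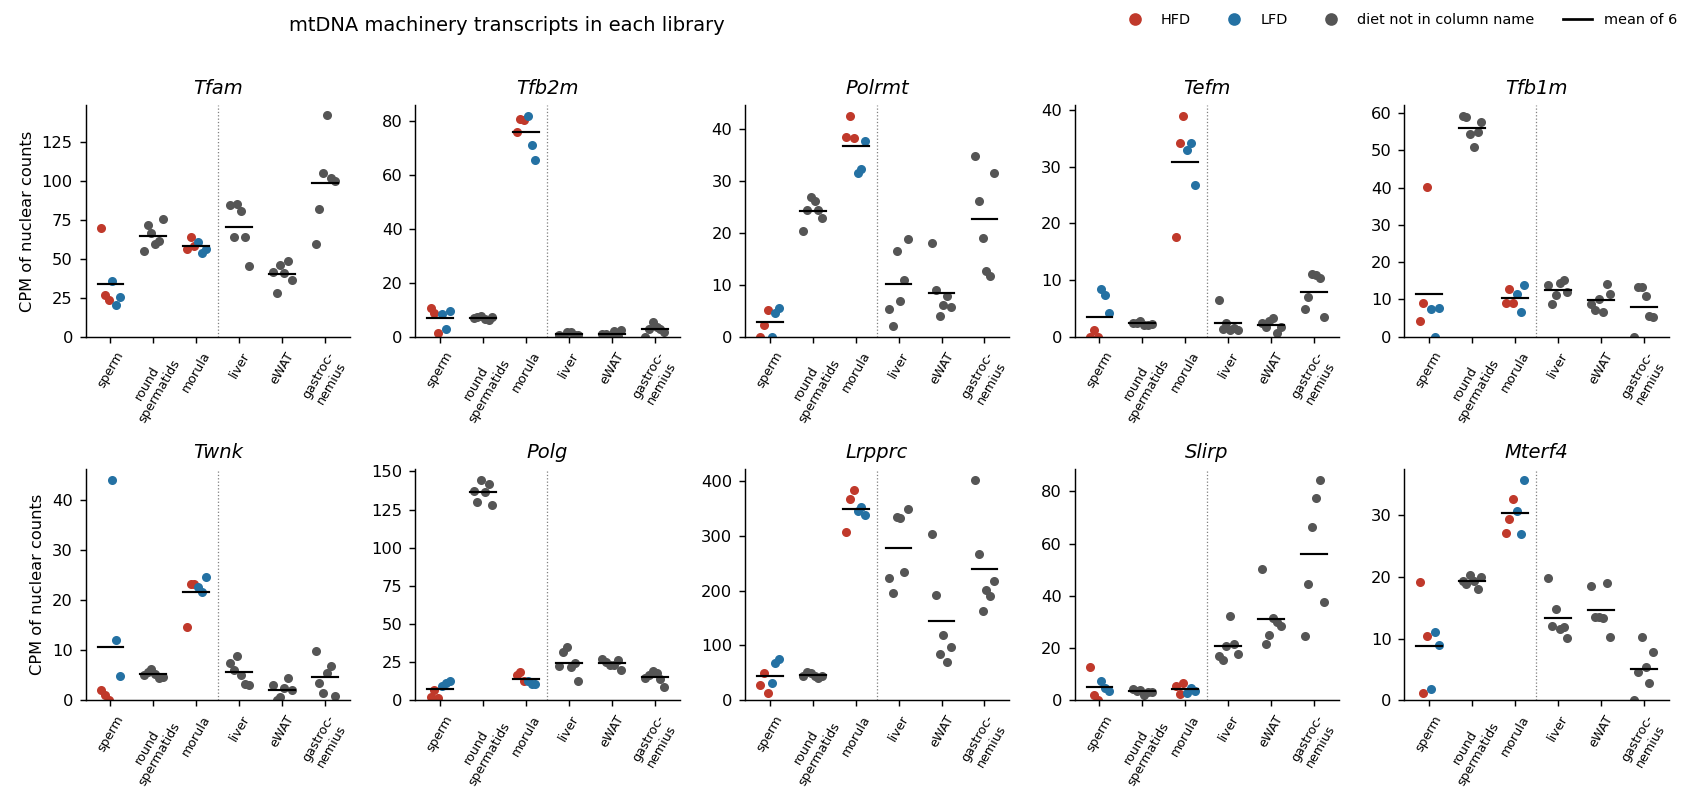
Each panel plots 1 gene: the y axis gives its level in CPM of nuclear counts, each point is 1 library, black lines are means of 6, red and blue points are HFD and LFD where the column names give the diet, and the dotted line separates Nextera libraries (left) from 3′ QuantSeq libraries (right), which are not comparable in level. Among the Nextera libraries, Polg and Tfb1m have their highest mean in round spermatids, and Tfb2m, Tefm, Lrpprc, Polrmt and Mterf4 in morula.

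The first comparison asked whether the paternal diet changed these transcripts in sperm. No change was detectable at this depth. Sperm libraries held 70 to 229 counts for the 10 genes together, and only Tfam, Polg and Lrpprc passed the filter on low counts. The edgeR quasi-likelihood test called 0 of these 3 (0% of 8643 genes tested were called) and 0 had an unadjusted p under 0.05, against 1122 of all genes. DESeq2 and limma-voom also called 0 of the 3, while over all genes DESeq2 called 295 and limma-voom 0.

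Tfam had 33, 24 and 18 counts in the HFD libraries and 38, 22 and 37 in the LFD libraries, which is 21.3, 8.26 and 11.1 TMM-scaled CPM against 8.59, 4.63 and 5.60. On the scaled values 1 HFD library was high and the groups overlapped (log2 change 1.10 ± 0.69, SE; adjusted p = 0.548, edgeR). That sign depended on the scaling: with library totals the change of Tfam was -0.67. Polg had 1, 6 and 1 counts in HFD and 10, 12 and 18 in LFD sperm, or 0.646, 2.06 and 0.614 against 2.26, 2.52 and 2.72 scaled CPM. Its groups did not overlap, as was the case for 20.4% of all genes tested, and the change of -1.06 ± 1.00 did not pass (adjusted p = 0.710, edgeR). Polg passed the filter through the LFD libraries alone, so nothing is read from this lack of overlap. Lrpprc ranged from 6.14 to 15.1 scaled CPM in HFD and from 7.46 to 16.6 in LFD sperm (-0.40 ± 0.65, adjusted p = 0.847, edgeR), an overlapping pair of ranges. With library totals, where the median gene moved to -1.82, Lrpprc was called lower in HFD sperm (-2.12, adjusted p = 0.0429, edgeR).

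The other 7 members were below the filter, and some of their values were uneven. Tefm, the elongation factor, had 0, 1 and 0 counts in HFD and 9, 8 and 6 in LFD sperm. Twnk, the helicase, had 1, 1 and 0 against 47, 13 and 7, with a single LFD library holding most of the counts. Tfb1m went the other way, with 2, 8 and 31 counts in HFD and 8, 0 and 11 in LFD, and a single HFD library was again the highest. In an edgeR fit without the filter the log2 changes were -3.26 ± 2.18 for Tefm (adjusted p = 0.672), -3.88 ± 1.57 for Twnk (adjusted p = 0.384) and 2.44 ± 1.18 for Tfb1m (adjusted p = 0.575). Mterf4, Tfb2m, Slirp and Polrmt held 1 to 14 counts in a library, or 0 in 1 to 2 libraries for Slirp and Polrmt, with overlapping groups on the scaled values. A count of 0 allows up to 3 counts, which is 2.07 to 6.37 nuclear CPM in these libraries.

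**Figure D2:**
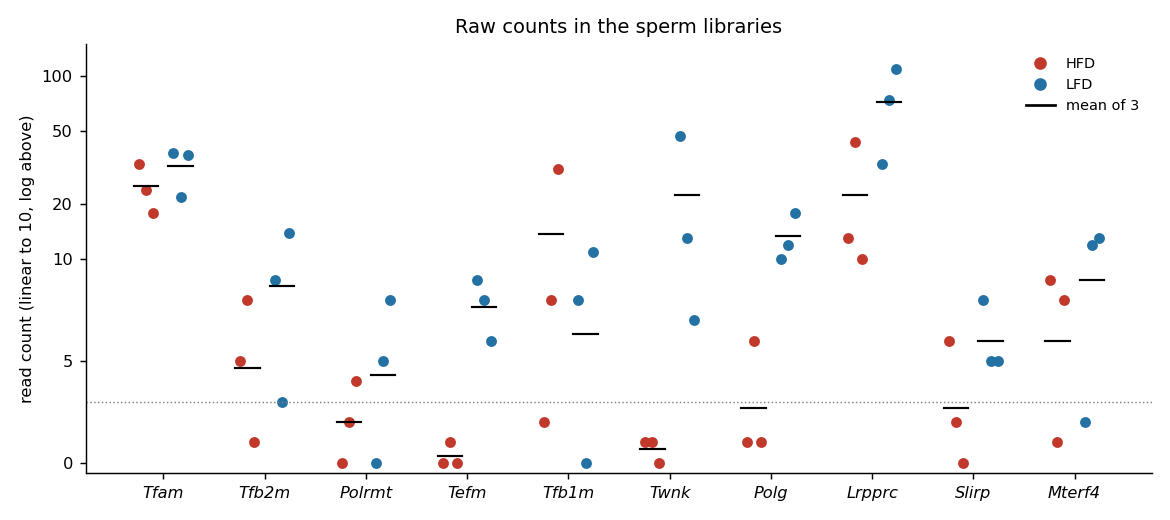
Raw read counts (y axis, linear to 10 and logarithmic above) of the 10 genes in the 3 HFD (red) and 3 LFD (blue) sperm libraries; black lines are means of 3, and the dotted line marks 3 counts. Only Tefm, Twnk and Polg have HFD counts all below the LFD counts, and most values lie under 20.

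Some lists of markers of other cells also differed between the sperm groups. The leukocyte list stood at 1345 to 3792 nuclear CPM in HFD and 4291 to 7031 in LFD sperm, without overlap and with all 6 genes detected in both. The epididymal list stood at 7571 to 12220 in HFD and 6762 to 41600 in LFD, with Lcn9 at 0 in both and Lcn8 at 0 in HFD, and the late spermatid and sperm list at 26400 to 53480 in HFD and 7855 to 28310 in LFD. The erythroid list went the other way, at 594 to 1591 in HFD and 57.4 to 557 in LFD sperm without overlap. The list of Sertoli and Leydig cells overlapped, at 279.9 to 1222 against 460.3 to 3163. The morula list stood at 45.4 to 151 in HFD and 217 to 297 in LFD sperm without overlap. Nanog, Pou5f1 and Sall4 of that list were at 0 in both, and Cdx2 at 0 in HFD. The TMM factors, which scale the totals, were 0.442 to 0.716 in HFD and 1.52 to 2.58 in LFD, the opposite order to the mtDNA share. The part of these lists and of the scaling in the values of Polg, Tefm and Twnk was not tested.

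In morula, where these transcripts are well covered, the paternal diet also left the 10 genes without a call. All 10 passed the filter, with 22 to 3550 counts per library. The edgeR test called 0 of 10 (0% of 13447 genes tested), with 0 at an unadjusted p under 0.05 against 858 of all genes. DESeq2 and limma-voom called 0 members as well, while DESeq2 called 18 of all genes. No member had groups without overlap in TMM-scaled CPM, against 12.1% of all genes tested. The median change of the members was 0.01 on the log2 scale and that of all genes 0.01.

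The embryo values were tight for the abundant members. Lrpprc stood at 232, 265 and 282 scaled CPM in HFD and 263, 267 and 254 in LFD morulae (log2 change -0.01 ± 0.09, SE). Tfam stood at 42.8, 46.2 and 42.7 against 46.2, 40.6 and 42.1 (0.03 ± 0.13), and Tfb2m at 57.6, 58.3 and 59.0 against 62.3, 53.8 and 49.2 (0.08 ± 0.12). In these 3 genes the ranges of the diets lay across each other. The largest change was that of Polg, at 12.5, 13.6 and 9.44 scaled CPM in HFD and 9.61, 8.06 and 8.23 in LFD (0.46 ± 0.24, adjusted p = 0.795, edgeR). Polrmt stood at 29.3, 30.8 and 28.2 against 24.02, 24.5 and 28.4 (0.20 ± 0.15, adjusted p = 0.870, edgeR). Most HFD libraries of both genes were above most LFD libraries, but the groups overlapped on this scale. On the nuclear CPM scale these 2 of the 10 members did not overlap, as was the case for 12.1% of all genes tested, with Polg at 12.9 to 18.8 against 10.6 to 12.6 and Polrmt at 38.3 to 42.5 against 31.5 to 37.8. Tefm and Twnk were low in 1 HFD library (13.4 and 11.1 scaled CPM) and stood at 20.1 to 28.6 and 16.5 to 18.5 in the other 5. Slirp (1.85 to 4.84 scaled CPM), Tfb1m (5.05 to 10.4) and Mterf4 (20.4 to 26.8) ranged over both diets.

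The difference between the diet effects in sperm and in morula was tested with an interaction term. Of 15416 genes 1 was called (0.00649%), and of the 10 members 0. Members with an unadjusted p under 0.05 were Twnk (-3.63 ± 1.27, adjusted p = 0.304, edgeR) and Tefm (-3.10 ± 1.14, adjusted p = 0.319), which carry the few sperm counts described above. limma-voom called 26 genes and no member. With library totals 4 members were called (Tefm, Twnk, Polg and Lrpprc), beside 3413 of all 15416 genes, and the median gene was at -1.78. Tefm and Twnk did not pass the filter in sperm, so nothing is read from the count.

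**Figure D3:**
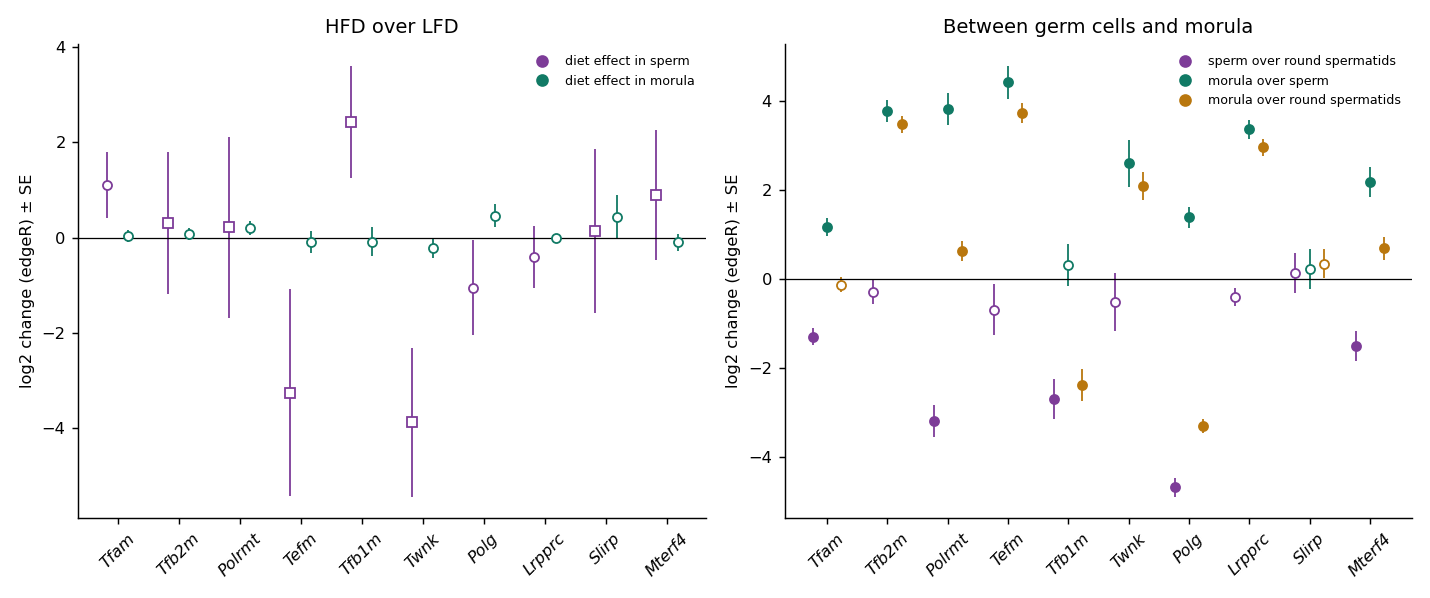
Log2 changes from edgeR with standard errors for the 10 genes: HFD over LFD in sperm and morula (left) and between sperm, round spermatids and morula (right). Filled points passed an adjusted p of 0.05, open points did not, and squares mark members below the filter, fitted without it; no diet change is filled, whereas morula over sperm is filled for 8 of 10 genes.

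Many more genes were called between cell types than by diet. Sperm was compared with round spermatids in 1 fit of the Nextera libraries. There 73.2% of 22658 genes were called by edgeR, and the median gene was lower in sperm by a log2 change of -1.43. Of the members 5 were lower in sperm and 0 higher. The 7 members below the filter in the sperm table entered this fit through the deeper libraries of the other cell types, and 3 of the 5 falls (Polrmt, Tfb1m and Mterf4) are among them, so nothing is read from the count. Groups did not overlap for 3 of 10 members and for 53.0% of all genes. Polg went from 128 to 145 nuclear CPM in round spermatids to 1.30 to 12.4 in sperm, the largest fall of the list (-4.68 ± 0.21, adjusted p = 1.93e-12, edgeR). Polrmt went from 20.5 to 26.9 to 0 to 5.53 nuclear CPM (-3.19 ± 0.37). For both genes the cell types were wholly apart. Tfb1m (-2.69 ± 0.45), Mterf4 (-1.50 ± 0.34) and Tfam (-1.30 ± 0.20) fell too, with Tfb1m and Tfam overlapping between the cell types in scaled CPM. Polrmt, Tfb1m and Mterf4 were below the filter in sperm, so nothing is read from the size of their falls or from a lack of overlap. The Tfb1m gene model was 1327 bases long in round spermatids and 3609 in sperm. The part of this in its fall was not tested.

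The other members were not called between sperm and round spermatids: Lrpprc (-0.40 ± 0.20), Tfb2m (-0.30 ± 0.27), Twnk (-0.51 ± 0.66), Tefm (-0.69 ± 0.57) and Slirp (0.12 ± 0.45). Lrpprc stood at 12.96 to 76.0 nuclear CPM in sperm and 41.4 to 51.5 in round spermatids. It was called lower in sperm under each alternative that kept all libraries. These were DESeq2 (-0.46), DESeq2 size factors (-0.498), nuclear TMM (-0.50), no filter (-0.703) and library totals (-1.855). It was also called lower when any of 3 sperm libraries was left out. Twnk was called lower without the LFD library that held 47 of its counts (-1.25). With library totals instead of TMM all 10 members were lower in sperm, as were 15465 of 22658 genes, and the median gene was at -2.80. The epididymal list was at 3.40 to 4.87 nuclear CPM and the leukocyte list at 8.54 to 14.9 in round spermatids, far below the sperm values above, and their part in these differences was not tested.

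Morula differed from sperm in the other direction. Of the 10 members 8 were higher in morula and 0 lower (60.9% of all genes tested were called), and 6 did not overlap (34.7% of all genes). The same 7 members entered through the other cells here too, and nothing is read from the count. Tefm (4.42 ± 0.38), Polrmt (3.82 ± 0.36), Tfb2m (3.77 ± 0.25) and Lrpprc (3.36 ± 0.21) had the largest changes. The first 3 did not pass the filter in sperm, with 24, 19 and 40 counts over 6 libraries. Nothing is read from their rank or lack of overlap. Twnk (2.60 ± 0.53), Mterf4 (2.19 ± 0.34), Polg (1.38 ± 0.23) and Tfam (1.17 ± 0.20) rose by less. Slirp (0.22 ± 0.45) and Tfb1m (0.31 ± 0.47) were not called, though Tfb1m was without the HFD sperm library of 31 counts (1.19). Tfb2m stood at 65.5 to 81.6 nuclear CPM in all morulae and at 1.30 to 10.6 in all sperm libraries.

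Between morula and round spermatids, members differed in both directions. Here 86.9% of all genes were called, with a median of -1.25, and 81.6% did not overlap. Of the members 6 were higher in morula and 2 lower, with 8 not overlapping and a median of 0.66. Polg, the replication polymerase, was lower in morula by -3.30 ± 0.16 on the log2 scale (10.6 to 18.8 against 128 to 145 nuclear CPM), and Tfb1m by -2.38 ± 0.37 (6.66 to 13.8 against 51.0 to 59.1). The replicative helicase Twnk was higher by 2.08 ± 0.32 (14.6 to 24.7 against 4.56 to 6.19 nuclear CPM), so Polg and Twnk stood in opposite order in these cells. The Twnk gene model was longer in morula (4013 against 3488 bases), and 12.6% of it lay within exons of Mrpl43 on the other strand. The part of this in the rise of Twnk was not tested. The Tfb1m gene model was shorter in round spermatids than in morula (1327 against 3609 bases). The part of this in the fall of Tfb1m was not tested either. Tefm (3.73 ± 0.23), Tfb2m (3.47 ± 0.20) and Lrpprc (2.96 ± 0.19) rose, with all 6 morulae above all 6 round spermatid libraries. The smaller rises of Mterf4 (0.69 ± 0.25) and Polrmt (0.63 ± 0.23) lost their call with DESeq2 size factors (0.38 and 0.32) and with library totals. Tfam was not called (-0.13 ± 0.18, adjusted p = 0.492, edgeR), at 53.5 to 63.7 nuclear CPM in morula and 54.7 to 75.8 in round spermatids, and was called lower with DESeq2 size factors (-0.44) and library totals (-0.57). Slirp was not called either (0.34 ± 0.32). The 3 contrasts share their libraries and are not independent of each other.

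Wider lists of the same machinery were read beside the 10 genes, and the genes named from them were called and did not overlap between groups. Their counts of calls stand beside a background of 86.9% of all genes called in morula over round spermatids, 60.9% in morula over sperm and 73.2% in sperm over round spermatids, and nothing is read from them as shares. In morula over round spermatids, 10 of 16 other genes of mtDNA replication and maintenance were higher and 2 lower. Mgme1, the nuclease that trims mtDNA ends, rose by 5.40 ± 0.24 and Ssbp1, the single-strand binding protein, by 4.61 ± 0.32, whereas Tk2, the mitochondrial thymidine kinase, fell by 3.48 on the log2 scale. The list of mitochondrial RNA synthesis and turnover had 5 of 19 genes higher and 5 lower. Its largest fall was that of Nsun4, the partner of Mterf4, from 369 to 407 nuclear CPM in round spermatids to 2.97 to 7.71 in morula (-6.07 ± 0.39), whereas Mterf4 rose on the TMM scaling. Of 8 regulators 5 were higher and 2 lower. Pprc1, a coactivator related to PGC-1, rose by 4.62 ± 0.42, and Gabpa, whose protein binds the ETS core, stood at 538 to 650 nuclear CPM in morula, 22.9 to 28.3 in round spermatids and 11.7 to 133 in sperm. Ppargc1a, which encodes PGC-1α, had 0 counts in all 6 morulae, which allows up to 0.320 to 0.351 nuclear CPM, against 3.38 to 5.41 in round spermatids.

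Against sperm, morula was higher for 8 of 16 replication and maintenance genes and lower for 3, higher for 12 of 19 RNA genes and lower for 2, and higher for 4 of 8 regulators and lower for 1. Pprc1 (4.20 ± 0.45), Gabpa (3.74 ± 0.21) and Dna2, a nuclease and helicase of mtDNA (3.23 ± 0.48), rose, and Nsun4 (-5.78 ± 0.39) and Tk2 (-3.61 ± 0.44) fell. Dna2 held 13 counts over the 6 sperm libraries and Tk2 48 over the 6 morulae, so nothing is read from the size of these 2 changes. In sperm over round spermatids, 7 of 16 replication and maintenance genes were higher and 3 lower, 2 of 19 RNA genes higher and 10 lower, and 4 of 8 regulators higher and 1 lower. Across these lists Rrm2b, the ribonucleotide reductase subunit of resting cells (4.82 ± 0.38), Mpv17, an inner membrane protein (2.86 ± 0.23), and Lonp1, the matrix protease (1.77 ± 0.18), rose, while the RNA-binding Fastk (-2.75 ± 0.27) and Fastkd2 (-2.03 ± 0.28) and the ligase Lig3 (-1.97 ± 0.34) fell. Lonp1 lost its call with library totals (0.23), and 4 other called genes of the lists turned sign. By diet, 0 genes of these 3 lists were called in sperm (28 tested) or in morula (41 tested).

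In the offspring tissues 3′ libraries were used, so levels are compared between tissues and not between genes. Transcripts of Tfb2m, Tefm and Twnk were too low to pass the filter there, with 9 to 58 counts over 6 libraries. In an edgeR fit without the filter, Tefm was called higher in gastrocnemius than in eWAT (2.39 ± 0.56) and in liver (1.48 ± 0.56). Twnk was called lower in eWAT than in liver (-1.96 ± 0.54) in that fit. These rest on few counts, and nothing is read from them. Lrpprc was the member with most counts in each tissue: 195 to 348 nuclear CPM in liver (median 282), 70.3 to 303 in eWAT (median 108) and 162 to 402 in gastrocnemius (median 210). Tfam stood at 45.4 to 85.4 in liver (median 72.4), 28.0 to 48.8 in eWAT (median 41.2) and 59.6 to 142 in gastrocnemius (median 101). The ranges of liver and muscle overlapped for both genes, and fat had the lowest median. In their own tables Polrmt did not pass the filter in liver, nor Tfb1m and Mterf4 in gastrocnemius, so these entered the comparisons through the other tissues.

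On the TMM scaling most tested members were lower in white fat than in liver. Of 7 tested, 6 were lower in eWAT and 0 higher by edgeR (61.6% of 10851 genes were called in either direction, and the median gene was at 0.07), and 3 did not overlap (41.9% of all genes). Lrpprc (-1.76 ± 0.28), Tfam (-1.59 ± 0.19, adjusted p = 1.06e-07) and Tfb1m (-1.13 ± 0.30) fell most and were the ones without overlap in scaled CPM. Polrmt (-1.03 ± 0.41), Polg (-0.81 ± 0.21) and Mterf4 (-0.65 ± 0.27) followed, and Slirp was not called (-0.20 ± 0.25). The calls of Polrmt and Mterf4 were lost when 7 and 11 of the 18 libraries, respectively, were left out 1 at a time. These directions lean on the scaling: eWAT had TMM factors of 1.45 to 1.70 against 0.759 to 0.847 in liver, and with library totals the median gene moved to 1.00, Tfb1m (-0.22) and Polrmt (-0.10) lost their calls, Polg and Mterf4 turned positive (0.11 and 0.28) and Slirp was called higher in fat (0.73). Lrpprc and Tfam were called lower under each scaling tried.

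On the TMM scaling several members were higher in muscle than in fat. Of 7 tested, 4 were higher in gastrocnemius and 0 lower (67.4% of all genes called, median -0.35), with 1 not overlapping (43.0%). Polrmt (1.92 ± 0.41), Tfam (1.87 ± 0.19, the one without overlap), Slirp (1.46 ± 0.25) and Lrpprc (1.27 ± 0.28) rose. With library totals, where the median gene was at -1.32, Slirp (0.49) and Lrpprc (0.28) lost their calls. Polg (-1.05) and Mterf4 (-1.70) were then called lower in muscle, which left 2 members higher and 2 lower. Of all 10851 genes 1227 were called higher and 7357 lower with library totals. On the TMM scaling Tfb1m (0.47 ± 0.33), Mterf4 (-0.73 ± 0.33) and Polg (-0.08 ± 0.23) were not called. Mterf4, which entered the fit through the other tissues, was also called lower with DESeq2 size factors (-0.73), with DESeq2 (-0.74) and when any of 4 libraries was left out (-1.05 to -0.55 over all 18).

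Against liver the muscle values were mixed. Of 7 members 1 was higher, Slirp (1.26 ± 0.26), and 2 lower, Mterf4 (-1.38 ± 0.33) and Polg (-0.90 ± 0.23), where 66.4% of all genes were called and the median gene was at -0.06. Mterf4 was the 1 member without overlap in scaled CPM (42.9% of all genes). It held 37 counts over 6 gastrocnemius libraries and entered the fit through the other tissues, so nothing is read from its lack of overlap. Tfam (0.28 ± 0.19), Polrmt (0.89 ± 0.41), Lrpprc (-0.49 ± 0.28) and Tfb1m (-0.66 ± 0.33) were not called. Without the gastrocnemius library of lowest total Tfam passed the threshold at 0.39, and Polrmt did so when any of 5 libraries was left out (0.70 to 1.18 over all 18). Tfb1m passed as lower in muscle when either of 2 gastrocnemius libraries was left out (-0.84 and -0.87). The gene Slirp shares nearly all exonic bases with Snw1 on the other strand, whose counts were 598 in liver, 1764 in eWAT and 684 in gastrocnemius over 6 libraries.

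**Figure D4:**
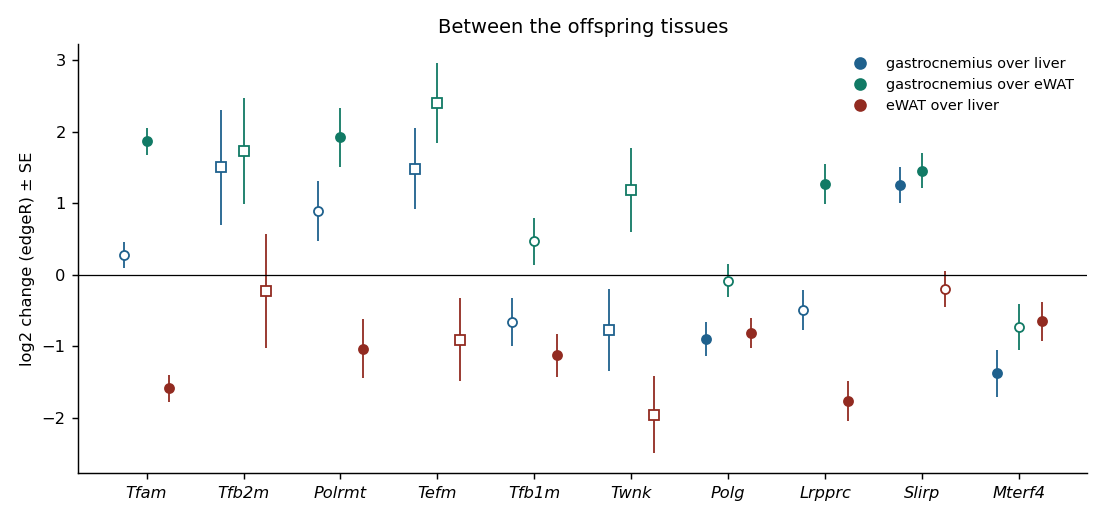
Log2 changes with standard errors between the offspring tissues from 1 edgeR fit of 18 libraries. Filled circles passed an adjusted p of 0.05 and open circles did not. Squares are members below the filter, fitted without it and drawn open whatever their adjusted p. Among the squares, adjusted p was under 0.05 for Tefm in gastrocnemius over eWAT and over liver and for Twnk in eWAT over liver. Changes of Tfam, Polrmt and Lrpprc are positive for gastrocnemius over eWAT and negative for eWAT over liver.

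For the wider lists, the background of genes called is the 61.6%, 67.4% and 66.4% given above for the 3 contrasts, and nothing is read from the counts as shares. In eWAT over liver, 11 of 15 tested RNA genes were lower and 0 higher, 5 of 11 replication and maintenance genes lower and 3 higher, and 4 of 8 regulators lower and 0 higher. Mrpl12, a ribosomal protein that binds Polrmt (-2.27 ± 0.22), Fastkd1 (-1.92 ± 0.35) and Ppargc1a (-1.90 ± 0.32) fell, and Rrm2b rose (1.73 ± 0.28). With library totals 15 genes of these lists lost their call, of which 8 changed sign. In gastrocnemius over eWAT, 8 of 15 RNA genes were higher and 1 lower, 4 of 11 replication and maintenance genes higher and 2 lower, and 2 of 8 regulators higher and 1 lower. Across the lists Fastk (3.08 ± 0.23), Esrra, the estrogen-related receptor alpha (2.88 ± 0.28), and Ppargc1a (2.82 ± 0.32) rose, and Tk2 fell (-2.06 ± 0.34). With library totals 10 genes of the lists lost their call. In gastrocnemius over liver, Fastk (2.09 ± 0.23), Esrra (1.98 ± 0.28) and Mgme1 (1.46 ± 0.37) rose, and Dna2 (-3.61 ± 0.55), Tk2 (-1.97 ± 0.35) and Ppargc1b (-1.70 ± 0.22) fell. Of the replication and maintenance genes 3 of 11 were higher and 3 lower, of the RNA genes 3 of 15 higher and 4 lower, and of the regulators 2 of 8 higher and 3 lower. Some genes named in these 3 contrasts had few counts in a tissue. Over 6 libraries Dna2 held 5 and Tk2 28 in gastrocnemius, and Mgme1 35 and Rrm2b 37 in liver. These genes entered the fit through the other tissues, and nothing is read from the size of their changes against the low tissue.

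The last question was whether the machinery follows the share of counts that mtDNA-encoded genes take. In the Nextera libraries the orders of the tissues differed. There sperm had the highest share and the lowest summed level of the 10 genes (94.6 to 158 nuclear CPM), round spermatids had the lowest share with 352 to 384, and morula lay between in share but had the highest sum, 567 to 683. In the 3′ libraries, eWAT had the lowest share and mostly the lowest sum (209 to 475 nuclear CPM), liver had 336 to 530, and gastrocnemius, with the highest share, 413 to 551, so that mean share and mean sum had the same order there, although the sums overlapped. Kits, depth and base of the total differ between these points, and tissues are too few for a correlation. Lrpprc alone held 36.1% of the member counts in sperm, 12.5% in round spermatids and 55.3% in morula. Its part was 63.1% in liver, 50.7% in eWAT and 49.2% in gastrocnemius.

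Within a tissue, the slope on the share was tested by edgeR over all genes of the table that passed the filter, which took in 10 members in round spermatids, 10 in morula, 6 in liver, 7 in eWAT and 5 in gastrocnemius. None of these was called in any of the 5 tables. In round spermatids 0.0147% of 20345 genes were called, in gastrocnemius 1.37% of 5031, and in morula, liver and eWAT 0% each. An unadjusted p under 0.05 was reached by Tfam in round spermatids (-0.76 ± 0.26 on the log2 scale per percentage point of share, adjusted p = 0.939), Tefm in morula (-0.17 ± 0.08, adjusted p = 0.999) and Lrpprc in gastrocnemius (0.06 ± 0.02, adjusted p = 0.298), and by none of the members tested in liver or eWAT. These 3 slopes differ in sign. In sperm the share separates the diets without overlap, so no slope was fitted there.

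As a description over 6 libraries of a tissue, the summed nuclear CPM of the 10 genes and the share had a Pearson r of 0.94 and a Spearman rho of 0.94 in gastrocnemius (r = 0.90 without the 2 libraries farthest from the median share). On CPM of all counts, r was 0.45 there, with sums of 267 to 300, so the relation depended on which total was divided by. The sum leaned on Lrpprc, which held 49.2% of the member counts in gastrocnemius. By gene, r of nuclear CPM with the share was 0.84 for Lrpprc, 0.755 for Twnk and 0.41 for Polrmt in gastrocnemius. For the other members it was negative, from -0.80 (Mterf4) to -0.0752 (Polg). The low-depth gastrocnemius library had the highest share. In round spermatids r was -0.82 on the nuclear and -0.83 on the all-count scale, over a share of 1.96% to 2.38%. In morula r was -0.54, in eWAT 0.20 and in liver -0.39, the last turning to 0.91 without 2 libraries.

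**Figure D5:**
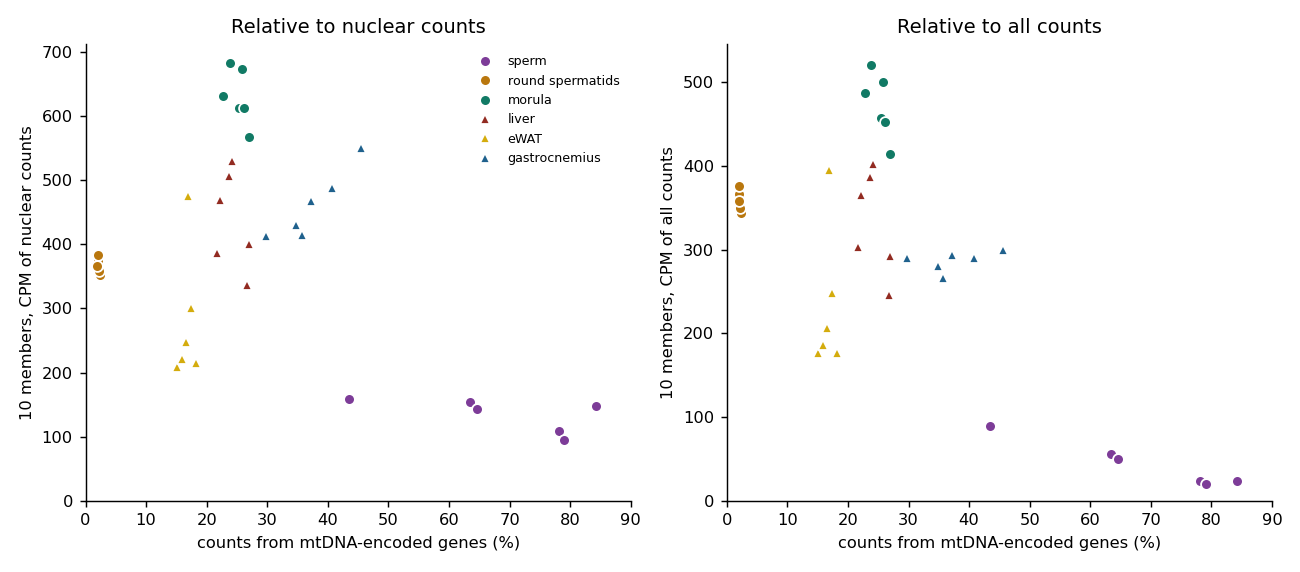
The summed level of the 10 genes (y axis, CPM of nuclear counts on the left and of all counts on the right) against the percent of counts from mtDNA-encoded genes (x axis); each point is 1 library, circles are Nextera and triangles QuantSeq 3′ libraries. Sperm lies lowest, and the rise of gastrocnemius on the left is nearly flat on the right.

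Over all 36 libraries, the 10 members did not move as 1 set. Their log2 nuclear CPM correlated with the mean of the standardised members at r = 0.73 (Polrmt), 0.70 (Tefm) and 0.63 (Tfam) at the upper end and 0.30 (Tfb1m) and 0.10 (Slirp) at the lower; each member is part of that mean. Among 7910 genes with a mean of at least 1 nuclear CPM in each tissue and outside the lists, those most like the mean were Mrto4 (r = 0.90), Vcp (0.88), Uqcrb (0.88), Cacybp (0.87) and Prpf18 (0.87). All 5 were highest in morula and lowest in sperm, such as Mrto4 at a mean of 172 and 1.62 nuclear CPM. The points share tissue and kit, so these values describe tissue differences and carry no test.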

How the data were processed

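The authors aligned reads with STAR to GRCm38, counted them per gene with featureCounts and deposited raw counts per gene and library; versions and strand setting are not given in the sources used here. Sperm, round spermatid and morula libraries were made with Nextera, offspring tissues with QuantSeq 3′ FWD. Genes and lists were chosen with earlier results of these data known. Every table column was used (0 left out). Columns were given a diet only where their names state it; for 3 morula samples a description names the other diet, and title and treatment were followed. The methods give 3 mice per diet for round spermatid RNA; for the other libraries nothing states separate animals or cultures, so p-values measure the spread between these libraries, which may be technical.

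Counts as deposited were tested with edgeR 4.0.16 (quasi-likelihood, filterByExpr with a minimum count of 10, TMM, Benjamini-Hochberg over all genes tested, threshold 0.05; R 4.3.3), within a table for diet and within a kit between tissues. Slopes on mtDNA share used TMM of nuclear genes. DESeq2 1.42.0 and limma-voom 3.58.1, other scalings, no filter and left-out libraries were alternatives. Libraries of a group differed by more than sampling noise (chi-square per degree of freedom 3.50 or higher in each pair), so none was taken as a duplicate. Scripts were tested on simulated data. Intervals and floors cover counting error only. Similar transcripts were sought with BLAST 2.17.0 (95% identity over at least 200 bases), and promoters came from RefSeq (GRCm38.p6).

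The text names all 10 members by diet and between the Nextera cell types, and the members that passed the filter between the offspring tissues. In the interaction and the slopes it names members with an unadjusted p under 0.05 or called under another scaling. It also names at most 3 rises and 3 falls of the wider lists per comparison among called genes without overlap. The 5 genes most like the members' mean (log2 of nuclear CPM plus 0.5) are named too. The levels of Gabpa across cells and of Snw1 were chosen after values were seen.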

Additional observations from a re-analysis of the deposited data

Results flagged for a closer look

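Among 48 sets of 6 libraries examined (the 10 genes, their sum and the mtDNA share in round spermatids, liver, eWAT and gastrocnemius), 4 held a library far from the other 5 by Dixon's criterion, where chance gives about 1 in 20. In eWAT 1 library had 18.2 nuclear CPM of Polrmt against 4.05 to 9.04 in the others, 50.4 of Slirp against 21.7 to 31.5, and 475 for the sum of the 10 genes against 209 to 300. The same library had the lowest adipocyte marker sum (19830 nuclear CPM against 23360 to 37080) and the highest late spermatid and sperm marker sum (101 against 0 to 3.26); the part of this in its values was not tested. Without it the number of members called in eWAT over liver was 6, as with it. In liver 1 library had 6.44 nuclear CPM of Tefm against 1.15 to 2.37, from few counts.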

How the results depend on the processing

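The alternatives counted here kept all libraries, except slope fits without the library of highest or of lowest share. Over them 372 values kept direction and side of the threshold, 22 passed it anew, 11 no longer passed, 16 reversed and 4 counts of calls moved. Library totals, under which mtDNA-encoded and tissue-specific counts enter the scale, changed the most: members called numbered 1 of 3 by diet in sperm (Lrpprc), 4 in the interaction, 10 in sperm over round spermatids and 3 in eWAT over liver. Over all genes the calls in these fits numbered 3266 of 8643, 3413 of 15416, 18327 of 22658 and 8401 of 10851. Signs reversed with library totals for Tfam in sperm by diet (-0.67), Lrpprc in morula by diet (0.0173), Tfam (-0.73), Tfb2m (-1.36), Polrmt (-1.69) and Mterf4 (-0.79) in the interaction, Slirp in sperm over round spermatids (-1.40) and in morula over round spermatids (-0.10), Tfb1m in gastrocnemius over eWAT (-0.49), and Polg (0.11), Slirp (0.73) and Mterf4 (0.28) in eWAT over liver. Without the filter Slirp turned to -0.17 in sperm over round spermatids, with DESeq2 size factors it turned to -0.0065 and with DESeq2 to -0.00315 in morula over sperm, and with nuclear TMM Polg turned to 0.0412 in gastrocnemius over eWAT. The cause was not tested. Leaving out 1 library gave morula diet changes of -0.0131 to 0.0832 (Tfam), -0.31 to 0.17 (Tefm), -0.33 to 0.13 (Tfb1m) and -0.0724 to 0.0620 (Lrpprc), sperm over round spermatids changes of -0.74 to 0.30 for Slirp, and -0.00126 to 1.04 for Slirp in morula over sperm and -0.20 to 0.0304 for Polg in gastrocnemius over eWAT. Leaving out offspring libraries was added after seeing the data. Genes called by diet without the filter numbered 41 in sperm and 63 in morula, by library totals 3266 in sperm, and in the interaction 3413 with library totals, 0 with nuclear TMM and 26 with limma-voom. No paired analysis was possible because the replicate numbers of the labels are not those of the count columns. Depth limits the sperm values of 7 members, at 19 to 69 counts over 6 libraries each.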
